A study of Mus musculus with 6 samples.

Results

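The genes examined here encode the nuclear-encoded proteins of mitochondrial oxidative phosphorylation, measured by RNA-seq of the hippocampus in 3 control and 3 p300-ifKO mice. Members were the protein-coding genes whose symbols begin with Nduf, Uqcr, Atp5, Cox4, Cox5, Cox6, Cox7 or Cox8, together with Sdha, Sdhb, Sdhc and Sdhd. The rule found 94 of the 55471 genes in the table. They were 38 genes of complex I, 8 complex I assembly factors (symbols beginning with Ndufaf), 4 of complex II, 8 of complex III, 18 of complex IV and 18 of complex V. The rule used symbols alone and no expression value.

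All mice were C57BL/6 (C57BL/6J in the study's methods) and, by the labels, aged 3 to 6 months. Tamoxifen, dissolved in corn oil at 20 mg/mL, was given 5 times to both groups. The p300-ifKO libraries carry the description Ep300_flox;Camk2a_creERT2. In these mice tamoxifen activates creERT2, a Cre recombinase driven by Camk2a, which recombines the floxed gene of the acetyltransferase p300 in excitatory forebrain neurons, so that glia, vessels and interneurons of the same tissue keep it. The treatment protocol describes controls as tamoxifen-treated littermates without the driver, but Camk2a_creERT2 stands in the description of every control library. Each library came from 1 male mouse about 1 month after gene ablation. In RNA of whole tissue, fewer cells of a type and less RNA per cell cannot be told apart.

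Oxidative phosphorylation is carried out in the inner mitochondrial membrane. Complexes I and II pass electrons from NADH and succinate to ubiquinone, complex III passes them to cytochrome c, and complex IV reduces oxygen, while complexes I, III and IV pump protons that drive ATP synthesis by complex V. Most subunits are encoded in the nucleus, translated in the cytosol and imported, and a small core is encoded by mitochondrial DNA. Neurons depend on this pathway for most of the ATP spent on ion pumping and synaptic transmission. In hippocampal tissue the reads of these genes come from neurons and from glia alike.

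The 6 libraries held 23151568 to 28433823 counts. Values below are normalized counts, that is, raw counts over the size factor DESeq2 gave the library, and levels compared between genes are also divided by exonic length in kb. Ep300 had 1545, 1474 and 2334 normalized counts in controls 1, 2 and 3, and 478, 1350 and 912 in p300-ifKO 1, 2 and 3. Its log2 fold change was -0.97 (SE 0.33), and it was not called (adjusted p = 0.9905 by DESeq2). Esr1, the estrogen receptor gene whose ligand-binding domain is part of creERT2, had 87.2 to 109 normalized counts in controls and 4217, 2416 and 2868 in p300-ifKO 1, 2 and 3. The p300-ifKO libraries thus stand in the order 1, 3, 2 by both genes: replicate 1 had the least Ep300 and the most Esr1 reads, and replicate 2 had the most Ep300 and the fewest Esr1 reads. Ep300 has 14273 exonic bases. Other protein-coding genes above 5000 bases had a median log2 ratio to the control mean of -0.29, 0.04 and -0.10 in p300-ifKO 1, 2 and 3. Long genes at large thus stood in the same order, so the Ep300 counts alone do not rank the mice by loss of p300. The order bears on the members, whose values are therefore also given without replicate 1 and without replicate 2. Arsi, which the paper places in the transgene that carries creERT2, had 24.2 to 38.8 normalized counts in controls. It had 204, 168 and 171 in p300-ifKO 1, 2 and 3. Esr1 and Arsi were thus low in every control, as the protocol's account of controls without the driver requires.

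The question was whether the members differed between p300-ifKO and control. Their mean level was higher in p300-ifKO for nearly every member, but no member passed the test. Of the 94 members, 91 had a mean of at least 10 normalized counts over the 6 libraries. The others were Cox8b, Cox8c and a second gene model named Atp5o, and the last 2 of these were at 0 counts in every library. Among the 91, 90 had a positive and 1 a negative log2 fold change, with a median of 0.35 and a range of -0.27 to 1.24. The upper end was Cox7b2, a gene of few counts. Over all 17070 genes at this level with a p, the median was -0.005 and 49.3% were positive. By DESeq2 (two-sided Wald test, Benjamini-Hochberg adjustment over all genes, threshold 0.05) 0 members were called, against a background of 0.0061% of the 32773 genes with an adjusted p. The smallest adjusted p of a member was 0.991. The edgeR quasi-likelihood test also called 0, with a smallest adjusted p of 0.745. At an unadjusted p under 0.05, DESeq2 gave 3 members (Cox5a, Ndufb8 and Ndufb9), all higher, against a background of 1.36% of all genes in that direction, and edgeR gave 2 (Ndufb8 and Cox5a).

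The spread among p300-ifKO mice was shared by almost the whole pathway. The 91 members had a median log2 ratio to the control mean of 0.05, 0.07 and -0.14 in controls 1, 2 and 3. The same median was 0.81 in p300-ifKO 1, -0.10 in p300-ifKO 2 and 0.23 in p300-ifKO 3. Replicate 1 was thus high, replicate 3 moderately high, and replicate 2 at the level of the controls. The within-group SD of these library medians was 0.34, close to the median log2 fold change of 0.35.

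Counted gene by gene, p300-ifKO 1 lay above every control for 88 of 91 members (96.7%), p300-ifKO 3 for 80 (87.9%) and p300-ifKO 2 for 2 (2.2%). Over all genes of this level the shares were 40.4%, 29.8% and 21.9%. In 84 members the p300-ifKO libraries stood in the order 1, 3, 2, as they did for 35.7% of all genes of this level and for 68.8% of the 2888 other protein-coding genes between the quartiles of member length (1027 to 2671 bases). Of those 2888 genes, p300-ifKO 1, 3 and 2 lay above every control for 74.8%, 55.7% and 12.6%. The 3 libraries of one group lay wholly above those of the other for 2 members (Ndufs1 and Cox5a), or 2.20%, where the background was 4.09% of all genes higher in p300-ifKO. No member lay wholly below the controls, against 3.37% of all genes. The shared excess of replicates 1 and 3 therefore did not separate the groups more often than in genes at large. Members took 0.970%, 0.963% and 0.860% of the counts of the control libraries and 1.51%, 0.883% and 1.10% of those of p300-ifKO 1, 2 and 3, that is 0.931% ± 0.0616 against 1.16% ± 0.318 (SD, n = 3 each).

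**Figure D1:**
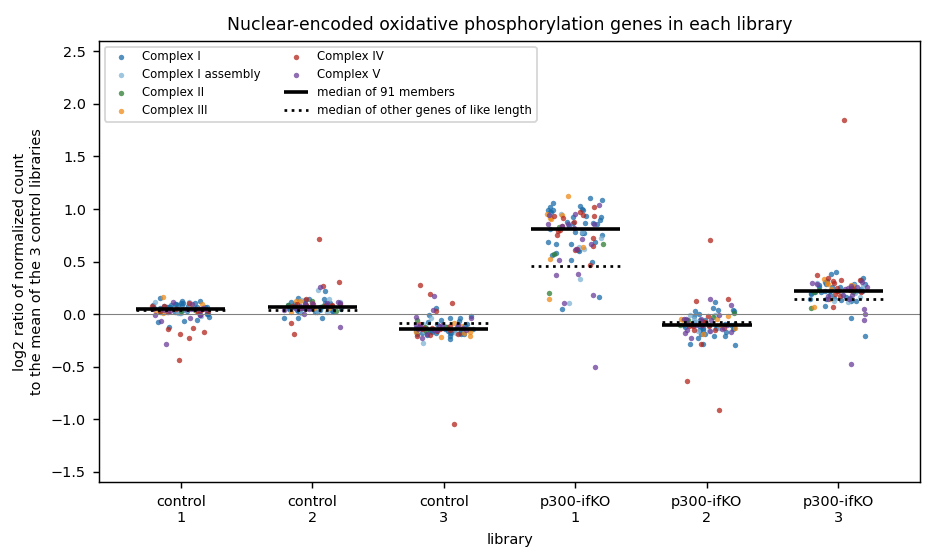
Log2 ratio of each member's normalized count to the mean of the 3 control libraries (y axis) in each of the 6 libraries (x axis), with points coloured by complex, a solid bar at the median of the 91 members and a dotted bar at the median of other protein-coding genes of like length. The solid bar stands at 0.81 in p300-ifKO 1, -0.10 in p300-ifKO 2 and 0.23 in p300-ifKO 3, and the dotted bar moves the same way, to 0.46, -0.07 and 0.15.

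Every complex showed this pattern, with little difference among them. The median log2 fold change was 0.37 for complex I (38 of 38 members positive), 0.32 for the complex I assembly factors (8 of 8), 0.28 for complex II (4 of 4), 0.42 for complex III (8 of 8), 0.42 for complex IV (16 of 16) and 0.33 for complex V (16 of 17). In p300-ifKO 1 the median ratio to the control mean was between 0.62 in complex II and 0.91 in complex III. In p300-ifKO 2 it was between -0.11 and -0.05, and in p300-ifKO 3 between 0.19 and 0.27. No complex departed from the order of the 3 mice.

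Complex I, the largest of the chain, oxidises NADH. Its member with the smallest p was Ndufb8, an accessory subunit of the membrane arm (ENSMUSG00000025204, chromosome 19, 44548572 to 44555440, minus strand, on GRCm38). Ndufb8 had 1872, 2108 and 1756 normalized counts in the controls and 3522, 1996 and 2496 in p300-ifKO 1, 2 and 3. Replicates 1 and 3 lay above all controls and replicate 2 lay within their range, so the groups overlapped. The log2 fold change was 0.48 (SE 0.22, adjusted p = 0.991 by DESeq2). Of the genes outside the naming rule, Ndufb9, another membrane-arm subunit chosen after its values were seen, was the remaining complex I gene under 0.05 before adjustment, with a log2 fold change of 0.55 (SE 0.28). It had 1835 to 2303 normalized counts in controls and 4568, 1975 and 2800 in p300-ifKO 1, 2 and 3.

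The core subunits of the NADH-oxidising arm of complex I, most of which carry its flavin and iron-sulfur centres, were spread over a wide range. Ndufs7, which holds the last iron-sulfur cluster before ubiquinone, had 1814, 1908 and 1464 normalized counts in the controls and 3666, 1637 and 2146 in p300-ifKO (log2 fold change 0.52, SE 0.28). Ndufs8 was at 0.43, Ndufv2 at 0.35 and Ndufv1, the subunit that binds NADH and FMN, at 0.33. Ndufs3, a core subunit without such a centre, was at 0.25, and these 5 values all rest on overlapping groups. By contrast Ndufs1, the subunit with the most iron-sulfur clusters (ENSMUSG00000025968, chromosome 1, 63143596 to 63176833), had 3909, 3683 and 3769 normalized counts in the controls and 3914, 4094 and 3987 in p300-ifKO 1, 2 and 3. Its groups did not overlap, yet the lowest p300-ifKO and the highest control value were within 5 counts of each other, and the log2 fold change was 0.08 (SE 0.10). Ndufs1 is the longest member, with 8086 bases of exon. The level of Ndufs1 per kb was 0.472 ± 0.0693 of that of Ndufs7 in controls, and 0.227, 0.531 and 0.395 of it in p300-ifKO 1, 2 and 3.

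The most abundant complex I genes per kb of exon were Ndufa4, with 3032 normalized counts per kb in controls, and Ndufa8, with 2438. Ndufa4 carries a complex I name but its protein is now placed in complex IV. Its log2 fold change was 0.40 (SE 0.24) and that of Ndufa8, an intermembrane-space subunit, was 0.40 (SE 0.24). Ndufaf3, which acts early in complex I assembly, led the 8 assembly factors with 0.44 (SE 0.26). It had 798, 752 and 659 normalized counts in the controls and 1431, 672 and 888 in p300-ifKO, so that it too was high in replicates 1 and 3 only.

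Complex II is the one complex built wholly from nuclear genes, and it also serves the tricarboxylic acid cycle. Sdhb, its iron-sulfur subunit, had 2949, 3031 and 2645 normalized counts in the controls and 5099, 2760 and 3377 in p300-ifKO 1, 2 and 3 (log2 fold change 0.38, SE 0.22). Sdha, the flavoprotein that oxidises succinate, had 11682, 11721 and 11011 against 13201, 11552 and 11963 (log2 fold change 0.09, SE 0.11). Replicate 1 was the highest library for both genes, but by a much smaller margin for Sdha. Per kb, the level of Sdha over that of Sdhb was 2.17 ± 0.082 in controls, and 1.40, 2.27 and 1.92 in p300-ifKO 1, 2 and 3. The membrane anchors Sdhc and Sdhd had log2 fold changes of 0.27 (SE 0.19) and 0.29 (SE 0.21).

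Complex III passes electrons from ubiquinol to cytochrome c. Its small subunits had the larger fold changes: Uqcr11 0.54 (SE 0.28), Uqcr10 0.46 (SE 0.25), Uqcrh 0.44 (SE 0.23), Uqcrq 0.42 (SE 0.26) and Uqcrb 0.42 (SE 0.26). Uqcr11 had 1226, 1323 and 1079 normalized counts in the controls and 2626, 1136 and 1526 in p300-ifKO 1, 2 and 3. The Rieske iron-sulfur protein Uqcrfs1 was at 0.26 (SE 0.18), and of the core proteins Uqcrc1 was at 0.26 (SE 0.20) and Uqcrc2 at 0.06 (SE 0.11). Uqcrc2 had 5174, 5350 and 4848 normalized counts in the controls and 5645, 5047 and 5361 in p300-ifKO, values that largely coincide. As in complex II, partners of the same complex thus stood apart in p300-ifKO 1. Uqcrc2 over Uqcrc1 per kb was 1.30 ± 0.0303 in controls and 0.920, 1.37 and 1.23 in p300-ifKO 1, 2 and 3.

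Complex IV, cytochrome c oxidase, has its catalytic core encoded in mitochondria and is surrounded by nuclear subunits, several of which exist as tissue-specific isoforms. Cox5a (ENSMUSG00000000088, chromosome 9, 57521274 to 57532426, plus strand) had the smallest p of all members. It had 843, 864 and 779 normalized counts in the controls and 1478, 901 and 1035 in p300-ifKO 1, 2 and 3. All 3 p300-ifKO libraries lay above all controls, replicate 2 by a small margin. The log2 fold change was 0.46 (SE 0.20, adjusted p = 0.991 by DESeq2). Cox4i1, the abundant form of subunit IV, had 9729, 9939 and 8527 against 18483, 8965 and 11905 (log2 fold change 0.48, SE 0.25). Its p300-ifKO replicate 2 lay within the control range and the groups overlapped. The remaining abundant subunits had log2 fold changes of 0.47 for Cox6a1, 0.45 for Cox7a2, 0.43 for Cox6b1, 0.42 for Cox5b, 0.42 for Cox8a and 0.33 for Cox7b. The related gene Cox7a2l was at 0.33.

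The isoforms known from muscle, testis or hypoxic tissue were scarce in both groups. Per kb of exon, Cox4i1 was at 6063 normalized counts in controls and Cox4i2, an isoform linked to oxygen sensing, at 34.3. Cox6a1 was at 7305 and the muscle form Cox6a2 at 136. Cox6b1 was at 6473 and the testis form Cox6b2 at 48.5, and Cox7a2 was at 2833 and the muscle form Cox7a1 at 56.7. Cox8a was at 3424 against 11.2 for the muscle form Cox8b, and the germ-cell form Cox8c was at 0 counts in every library. Ndufa4 was at 3032 against 55.1 for Ndufa4l2, which is induced by hypoxia. In p300-ifKO the order within each of these pairs was the same in every library.

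Fold changes of the scarce forms were poorly determined: 0.16 (SE 0.50) for Cox4i2, 0.11 (SE 0.27) for Cox6a2, 0.17 (SE 0.38) for Cox6b2, 0.38 (SE 0.38) for Cox7a1 and 0.07 (SE 0.33) for Ndufa4l2. Cox7b2, a paralog of Cox7b, had the largest fold change of the members, 1.24 (SE 0.71). It rested on 6, 11 and 3 raw counts in the controls and 10, 13 and 27 in p300-ifKO 1, 2 and 3, and its highest library was replicate 3, unlike the abundant members. The mean of Cox7b2 was 6.86 in controls and 16.1 in p300-ifKO, so that it passed the mean of 10 only through the p300-ifKO libraries. No difference was detectable at these counts.

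**Figure D2:**
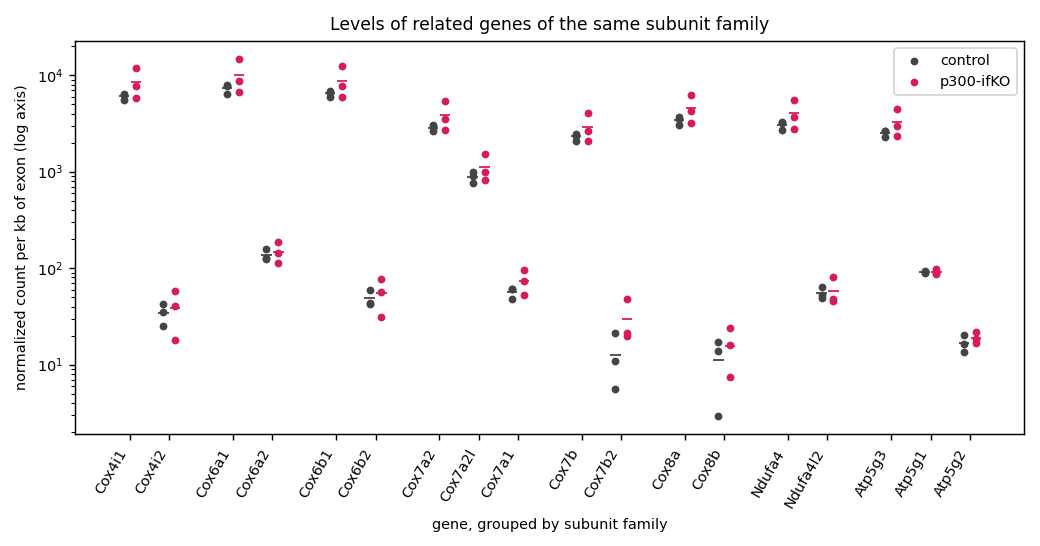
Normalized counts per kb of exon (y axis, log scale) of related genes of the same subunit family, with points for the 3 control (grey) and 3 p300-ifKO (pink) libraries and a dash at each mean. The abundant forms sit far above their paralogs in both groups (Cox4i1 6063 against Cox4i2 34.3 in controls), and the gap between forms exceeds the spread between libraries.

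Complex V, ATP synthase, consists of a catalytic F1 head and a membrane-bound Fo motor. In the head, 3 alpha and 3 beta subunits surround 1 gamma subunit. The genes for alpha and beta, Atp5a1 and Atp5b, were the members with the highest levels in controls at 7579 and 7692 normalized counts per kb, and Atp5c1 (gamma) was at 2563. Atp5b over Atp5c1 per kb was 3.00, 2.87 and 3.16 in controls and 2.70, 2.99 and 2.80 in p300-ifKO 1, 2 and 3, and Atp5a1 over Atp5b was 0.985 ± 0.00375 in controls and 0.901, 0.987 and 0.988 in p300-ifKO. These ratios use the summed length of all annotated exons, which need not be the length of the transcript in use.

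Among complex V genes, Atp5e, the epsilon subunit of the head, had the smallest p. It had 1491, 1623 and 1396 normalized counts in the controls and 3092, 1451 and 1840 in p300-ifKO (log2 fold change 0.50, SE 0.26). Atp5b had 33743, 33909 and 30118 against 46522, 31539 and 36006 (0.22, SE 0.17), Atp5a1 had a log2 fold change of 0.17 (SE 0.15) and Atp5c1 of 0.32 (SE 0.20). The most abundant genes thus had smaller fold changes than the small epsilon subunit. Atp5l, subunit g of the membrane part (ENSMUSG00000038717, chromosome 9, 44912557 to 44920742), was the sole member with a negative value, -0.27 (SE 0.25). It had 134, 129 and 158 normalized counts in the controls and 98.8, 149 and 101 in p300-ifKO 1, 2 and 3, so that replicates 1 and 3 were low and replicate 2 was at control level. Its annotated exons span 6443 bases, and 9.99% of their 50-base stretches also occur in other genes, 642 of them. Reads matching several places were removed before counting, so that such a count can fall short. Of the 91 members, 39 share no 50-base stretch with another gene and 8 share over 20% of theirs (Ndufaf2, Atp5o, Atp5g2, Ndufb6, Ndufa13, Uqcrb, Cox7c and Ndufs5), and the levels of those 8 are uncertain.

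Subunit c forms the rotating ring of complex V and is made from 3 genes whose mature proteins are the same and whose import sequences differ. Atp5g3 had 2523 normalized counts per kb in controls, Atp5g1 90.3 and Atp5g2 16.7. Atp5g3 had 5691, 5783 and 5031 normalized counts in the controls and 9682, 5135 and 6561 in p300-ifKO 1, 2 and 3 (log2 fold change 0.37, SE 0.23). Atp5g1 had 433, 443 and 455 against 478, 442 and 428 (0.02, SE 0.13), a much narrower range. Atp5g2 had 22.9, 33.6 and 27.6 against 36.5, 30.9 and 28.0 (0.18, SE 0.37). The exonic lengths of the 3 genes are 2181, 4912 and 1675 bases. Over the last 225 coding bases before the stop codon, Atp5g1 and Atp5g3 share 180 bases (80%), Atp5g1 and Atp5g2 191 (84.9%) and Atp5g2 and Atp5g3 177 (78.7%). The final 90 coding bases, from GENCODE transcripts, are shown because they decide whether a read can be assigned to one of the 3 genes. Capitals mark bases that differ from Atp5g3.
Atp5g3: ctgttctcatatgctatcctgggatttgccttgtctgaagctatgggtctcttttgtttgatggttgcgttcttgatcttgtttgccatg
Atp5g1: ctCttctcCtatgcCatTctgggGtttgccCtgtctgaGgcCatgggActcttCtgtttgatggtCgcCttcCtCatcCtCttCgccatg
Atp5g2: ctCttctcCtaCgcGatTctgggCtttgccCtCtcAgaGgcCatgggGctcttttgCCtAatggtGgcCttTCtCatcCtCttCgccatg
Atp5g1 differs at 17 of these 90 bases and Atp5g2 at 23, so that a 50-base read from this stretch tells the genes apart. None of the 50-base stretches of Atp5g3 occurs in another gene, whereas 11.1% of those of Atp5g1 and 38.4% of those of Atp5g2 do, by which their counts are less certain.

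**Figure D3:**
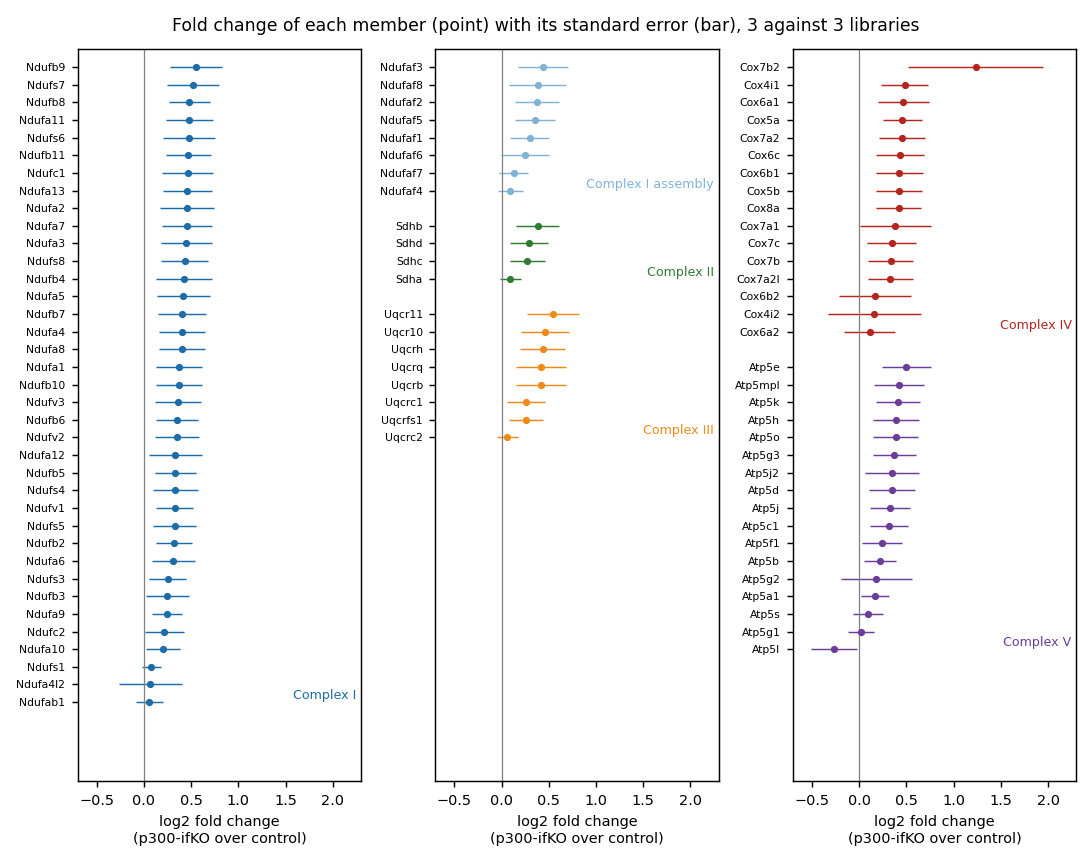
Log2 fold change of p300-ifKO over control (x axis) for 90 of the 91 members with a mean of at least 10 normalized counts (1 is not drawn), in panels by complex and sorted within each, with bars of 1 standard error from DESeq2 (3 against 3 libraries). 89 of the 90 points lie right of 0, Cox7b2 has the widest bar of its complex and Atp5l is the point left of 0.

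Within the complexes, several genes with small fold changes (Ndufs1, Sdha, Atp5a1, Atp5g1) have long exons and several with larger ones (Uqcr11, Uqcr10, Cox6a1) short ones. Others did not follow length. Ndufb8, with 3146 bases, was at 0.48, and Uqcrc2, with 2552, was at 0.06 where Uqcrc1, with 4135, was at 0.26. The members were set against other protein-coding genes of like exonic length. Short genes in general had higher values in p300-ifKO 1 and 3. Spearman's rho of log2 fold change with exonic length was -0.43 across the 91 members and -0.55 across 14511 other protein-coding genes; all values share the same 6 libraries, and the coefficient describes them without a test.

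In genes of up to 1000 bases the median log2 fold change was 0.41 for 22 members and 0.34 for 227 other genes. Between 1000 and 1500 bases it was 0.40 for 20 members and 0.29 for 593 others, and between 1500 and 2000 bases 0.40 for 16 and 0.22 for 879. In longer genes the medians of both sets were lower. Between 2000 and 3000 bases they were 0.33 for 12 members and 0.14 for 2215 others, and between 3000 and 5000 bases 0.26 for 17 and 0.03 for 4221. Above 5000 bases they were 0.07 for 4 members and -0.11 for 6376 others. The members' median stood above that of the other genes in each of the 6 ranges, and both fell with length.

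After subtracting the median of the other genes in the same length range, 76 of 91 members were above and 15 below 0, with a median difference of 0.13. It was 0.15 for complex I, 0.09 for the assembly factors, 0.15 for complex II, 0.13 for complex III, 0.08 for complex IV and 0.13 for complex V. The same difference was 0.12 for 77 mitochondrial ribosomal protein genes and 0.13 for 82 cytosolic ribosomal protein genes, whose median log2 fold changes were 0.27 (74 of 77 positive) and 0.34 (77 of 82 positive). In size the members' difference was thus close to that of both ribosomal gene sets. Whether the members differ from them was not tested.

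**Figure D4:**
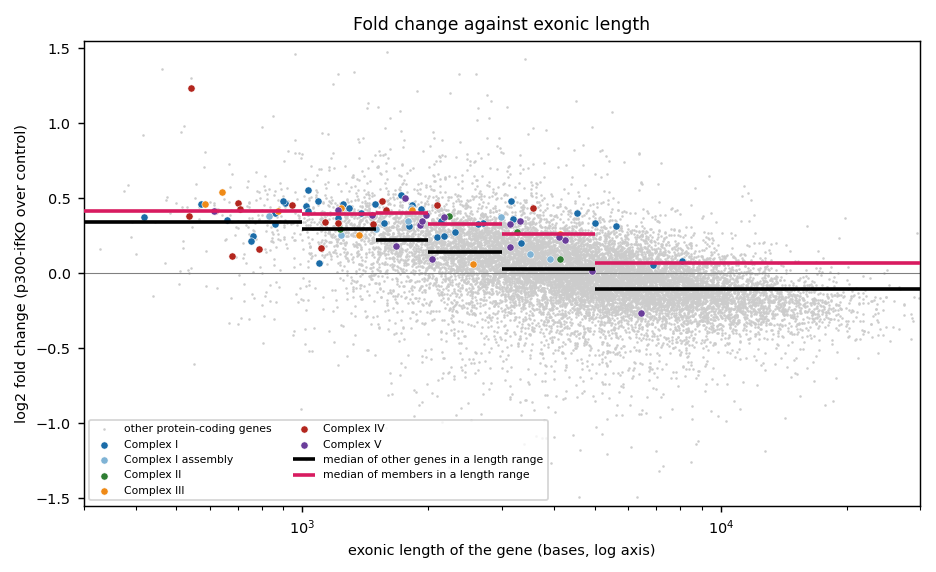
Log2 fold change of p300-ifKO over control (y axis) against exonic length in bases (x axis, log scale) for members (coloured by complex) and other protein-coding genes (grey; those beyond 1.5 in either direction are not drawn), with bars at the median of each length range. Both sets of bars descend with length, from 0.41 to 0.07 for members (pink) and from 0.34 to -0.11 for other genes (black).

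Each p300-ifKO library was left out in turn. Without p300-ifKO 2, the library at control level, which leaves 2 against 3 libraries, DESeq2 called 49 of the 82 members with an adjusted p, all 49 higher (59.8%), with a median log2 fold change of 0.56. The background was 4.11% of 11726 genes higher and 3.79% lower. Among the 1819 other genes between the quartiles of member length with an adjusted p, 14.2% were called higher, and among the 118 others of up to 1000 bases 44.9% were, against 66.7% of 18 members of that length. Of the cytosolic ribosomal protein genes with an adjusted p, 29 of 57 (50.9%) were called higher. Of the mitochondrial ribosomal protein genes, 20 of 75 (26.7%) were. The median log2 fold changes of these sets were 0.52 and 0.41, and that of all 2888 other genes between those quartiles was 0.32. By complex, the called members were 23 of 37 in complex I, 2 of 8 assembly factors, 1 of 4 in complex II (Sdhb), 5 of 8 in complex III, 9 of 10 in complex IV and 9 of 15 in complex V. In this fit Ndufb9 had the smallest adjusted p of the members (0.0130 by DESeq2), and Cox4i1 (0.0167), Ndufb8 (0.0175), Uqcr11 (0.0208) and Cox5a (0.0261) were among the called genes. Sdha (0.425), Uqcrc2 (0.553), Ndufs1 (0.724) and Atp5g1 (0.910) were not called.

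Without p300-ifKO 1, in contrast, 0 members were called, 0 had an unadjusted p under 0.05 in DESeq2, the median log2 fold change was 0.08 and 80 of 91 were positive. In that fit all genes of this level had a median of -0.001 (8481 of 17070 positive). The 2888 other genes between the quartiles of member length had a median of 0.04 (1847 positive). Without p300-ifKO 3 the members' median was 0.42 and 0 members were called. The members' difference therefore rested mainly on p300-ifKO 1, the library with the fewest Ep300 reads. With smooth length offsets per library the members' median was 0.26, against 0.03 over all genes of this level, and 87 of 91 were positive. In that fit the 2888 other genes between the quartiles of member length had a median of 0.10 (1979 positive). Mitochondrial ribosomal protein genes had a median of 0.21 (73 of 77 positive) and cytosolic ones of 0.23 (70 of 82). With 1 surrogate variable as a covariate the members' median was -0.006 and 42 of 91 were positive. That variable had the value -0.82 in p300-ifKO 1 and between -0.12 and 0.43 elsewhere, values that set p300-ifKO 1 apart as the members do. Because Ep300, Esr1, the length trend and the members all order the p300-ifKO libraries alike, the loss of p300 and other differences between the 3 mice or libraries cannot be told apart here.

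**Figure D5:**
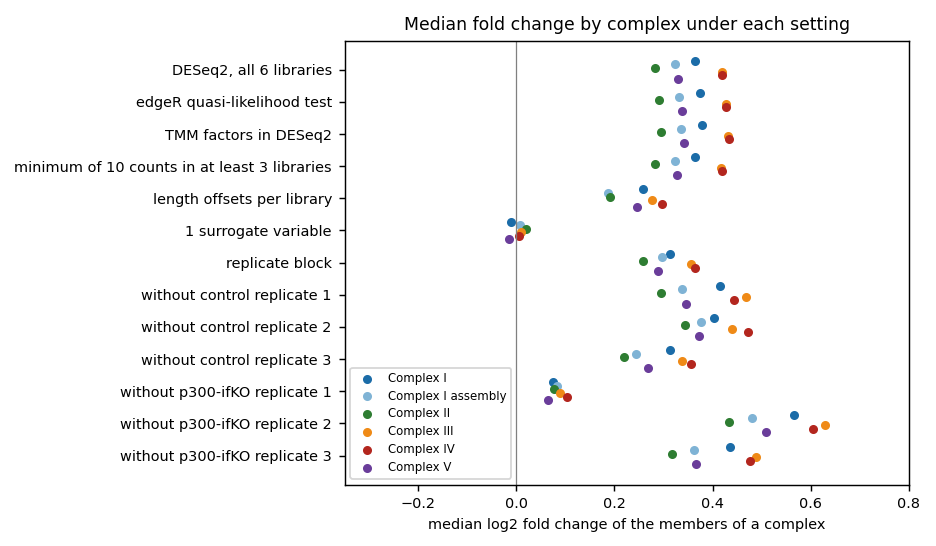
Median log2 fold change of p300-ifKO over control (x axis) of the members of each complex (colours) under the DESeq2 comparison of all 6 libraries and 12 alternatives (y axis). The medians lie near 0 with 1 surrogate variable (-0.006 over all members) and without p300-ifKO replicate 1 (0.08), and are highest without p300-ifKO replicate 2 (0.56).

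The mitochondrially encoded partners of these subunits had values on both sides of 0. Of the 13 protein genes of mitochondrial DNA, 7 passed the mean of 10 normalized counts, with a median log2 fold change of 0.04, 4 of them positive and 3 negative, and none was called. With length offsets the median turned to -0.09, against 0.03 over all genes, with 2 of 7 positive. mt-Nd5, a membrane subunit of complex I, had 106393, 118984 and 113493 normalized counts in the controls and 77468, 110892 and 94341 in p300-ifKO 1, 2 and 3 (log2 fold change -0.26, SE 0.16). mt-Co1, the catalytic subunit of complex IV, had 260420, 278280 and 256558 against 217492, 247429 and 246187 (-0.16, SE 0.11). Replicate 1 was the lowest library for both. It was the highest for 4 others, mt-Nd1, mt-Nd4, mt-Nd6 and mt-Cytb, and the median ratio of the 7 genes to the control mean was 0.17, -0.13 and 0.05 in p300-ifKO 1, 2 and 3, the order of the members. Reads of mitochondrial protein genes made up 3.98% to 4.63% of a library. mt-Co2, mt-Atp6, mt-Atp8 and mt-Nd4l were at 0 counts in every library, and mt-Co3 and mt-Nd3 had at most 1 read in any, so that these 6 genes are not informative.

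Genes around the pathway were read from lists of known function, and none of their members was called by DESeq2 or had an unadjusted p under 0.05. Cytochrome c and cytochrome c1 had values close to the members' median, Cycs with a log2 fold change of 0.35 (SE 0.22) and Cyc1 of 0.33 (SE 0.23). Of 40 assembly factors outside the rule, 37 passed the mean and 27 were positive, with a median of 0.08. The smallest p were those of the complex III assembly factors Uqcc3 (0.50, SE 0.28) and Uqcc2 (0.44, SE 0.26). Of 13 tricarboxylic acid cycle enzymes, 10 were positive, with a median of 0.07, led by malate dehydrogenase Mdh2 (0.34, SE 0.20) and succinate-CoA ligase Suclg1 (0.29, SE 0.20). With length offsets their median was 0.15 (11 positive), against 0.03 over all genes.

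Of 16 regulators of nuclear genes of oxidative phosphorylation and of mitochondrial transcription, 7 were positive and 9 negative, with a median of -0.08. These genes are long, with a median of 6128 exonic bases. With length offsets per library their median was 0.05 and 9 of 16 were positive. In that fit all genes with a mean of at least 10 normalized counts had a median of 0.03, with 9673 of 17070 positive. The regulators' median thus lay close to that of all genes. Esrra, the nuclear receptor ERR alpha, had 1066, 1083 and 1016 normalized counts in the controls and 1361, 1083 and 1189 in p300-ifKO (0.20, SE 0.14). Ppargc1a, the coactivator PGC-1 alpha, had 1196, 1117 and 1372 against 725, 1266 and 983 (-0.31, SE 0.22). Ppargc1a was lowest in p300-ifKO 1. It has 6592 exonic bases, and other protein-coding genes above 5000 bases had a median ratio to the control mean of -0.29, 0.04 and -0.10 in p300-ifKO 1, 2 and 3, the same order.

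Promoters of the members were searched for the binding letters of regulators known from this gene class. RefSeq promoter windows on GRCm38.p6 (250 bases before to 50 after a start) matched 76 of the 93 member symbols and gave 81 windows. On either strand, the core of the NRF1 site, GCGCATGCG, was in 10 member windows (12.3%) and in 1.75% of all 32851 windows. The ETS letters CCGGAAG, read by GABP, were in 18 (22.2%) against 8.86%, the YY1 letters AAGATGGCG in 8 (9.88%) against 1.40%, the ERR letters CAAGGTCA in 4 (4.94%) against 1.56%, and the CRE letters TGACGTCA, read by CREB, in 4 (4.94%) against 1.79%. Counted per gene, the NRF1 core was in 13.2% of 76 members and in 3.69% of 11347 other protein-coding genes with a mean of at least 10 normalized counts, the ETS letters in 23.7% against 17.8%, the YY1 letters in 10.5% against 3.09%, the ERR letters in 5.26% against 1.37% and the CRE letters in 5.26% against 3.41%. These shares describe letters, not binding, and a link between the letters and the differences among libraries was not tested.

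The stretches around the NRF1 core are printed for the 4 named members that hold it wholly before the start, to set these letters beside the fold changes. Uqcr11 and Uqcrc1 hold the core in their windows, but not wholly before the start. Each runs 5′ to 3′ on the strand of the gene, which is the minus strand for all 4, with the core or its reverse complement CGCATGCGC in capitals. They lie at chr2:36049339-36049377, chr5:115349082-115349150, chr9:44920945-44920992 and chr15:102671051-102671119, and their cores begin 9, 162, 241 and 42 bases before the start, in the order printed.
Ndufa8: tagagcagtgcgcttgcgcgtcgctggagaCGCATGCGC
Cox6a1: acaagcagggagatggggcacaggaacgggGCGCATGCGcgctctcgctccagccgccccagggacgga
Atp5l: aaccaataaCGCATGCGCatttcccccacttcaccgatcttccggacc
Atp5g2: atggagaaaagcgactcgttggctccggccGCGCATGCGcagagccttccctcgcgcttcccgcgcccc
The log2 fold changes of these genes were 0.40 for Ndufa8 (SE 0.24), 0.47 for Cox6a1 (SE 0.27), -0.27 for Atp5l (SE 0.25) and 0.18 for Atp5g2 (SE 0.37). None of the 4 was called.

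Markers of the cell types in the tissue were read beside the members, and none was called. The median log2 fold change was -0.01 for 6 excitatory neuron markers, -0.06 for 6 interneuron, -0.04 for 5 astrocyte, 0.22 for 5 oligodendrocyte, 0.11 for 5 microglia, -0.15 for 4 endothelium, -0.05 for 5 pericyte and 0.41 for 4 choroid plexus markers. At an unadjusted p under 0.05, 1 excitatory neuron marker was higher (Neurod2, 0.33, SE 0.14) and 1 astrocyte marker lower (Slc1a3, -0.25, SE 0.12), both named after their values were seen. All 5 oligodendrocyte markers were positive, with a median ratio to the control mean of 0.50, -0.07 and 0.16 in p300-ifKO 1, 2 and 3, the order of the members, and a summed level of 89865 to 118914 normalized counts in controls and 98096 to 126379 in p300-ifKO. Summed excitatory neuron markers were at 140998 to 161561 in controls and 138567 to 166090 in p300-ifKO. Choroid plexus markers varied most, from 726 to 3731 in controls and from 1368 to 5426 in p300-ifKO, and were highest in p300-ifKO 3. No marker of these lists was at 0 in every library, and their part in the members' values was not tested.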

How the data were processed

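RNA-seq of hippocampal RNA was performed by the authors with single-end reads of 50 bases. Per the labels and the methods of the study, the authors trimmed adapters with Trim Galore (0.6.4), aligned with STAR (2.6.1) to GRCm38, kept reads above a mapping quality of 10 and deposited raw counts per gene on exons of Ensembl release 99. A strand setting is not given in the sources used here, so overlapping genes on opposite strands are uncertain, and removal of multi-mapped reads lowers genes with near-identical copies.

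Of 55471 identifiers, 55230 (99.57%) matched GENCODE M21, which gave symbols and biotypes. Exonic length is that of the deposited table. Groups and replicate numbers came from sample titles. DESeq2 (1.42.0, R 4.3.3) was fitted across all genes with default size factors and filters and no covariate. Alternatives were the edgeR (4.0.16) quasi-likelihood test, TMM factors, a filter that asked 3 or more libraries for 10 counts each, length offsets (mgcv 1.9.3), 1 surrogate variable (sva 3.50.0), a replicate block and each library left out. The fits were tested on simulated data with 200 changed genes. Those counts were drawn gene by gene, with no length trend in any library and no shared shift beyond library size. The simulation therefore does not show how the fits behave with such a trend. Log2 ratios used a pseudocount of 0.5. Medians over members describe the libraries and carry no test.

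Named members were, per complex, the 2 highest per kb and the smallest p, the core electron-transfer and catalytic subunits, isoform pairs, the leading assembly factor and the extremes. The values of 1 member are not reported here singly. Members and lists were chosen with earlier results of these data known.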

Additional observations from a re-analysis of the deposited data

How the results depend on the processing

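The count of called members was 0 in the DESeq2 fit of all 6 libraries and in 11 of the 12 alternatives, and between 0 and 49 with 1 library left out, the 49 without p300-ifKO replicate 2. The replicate block also called 0 members, with a median of 0.315 over all members. It gave 12 members an unadjusted p under 0.05 in DESeq2, against 3 without the block. The share of all genes under 0.05 with the block is not given here, so the rise is not a result about the members. Deviations of same-numbered libraries from their group means correlated at 0.27, -0.28 and 0.13 for replicates 1, 2 and 3. With 3 libraries a group that share a length trend, these values cannot show whether the numbers pair the mice. The library names carry the same numbers in both groups, and whether these mark pairs is not stated. With 1 surrogate variable the median was -0.006 over all members, -0.011 for complex I, 0.008 for its assembly factors, 0.019 for complex II, 0.010 for complex III, 0.006 for complex IV and -0.016 for complex V. The direction of single genes turned in that fit for Ndufa4 (-0.002), Ndufa8 (-0.002), Sdhd (-0.015), Cox6a1 (-0.016), Cox6b1 (-0.006), Ndufv2 (-0.042), Ndufs3 (-0.010), Uqcrc1 (-0.032), Uqcrc2 (-0.005), Uqcrb (-0.023), Uqcrq (-0.048), Atp5g1 (-0.017), Cox4i2 (-0.458), Cox6a2 (-0.121), Cox6b2 (-0.254), Cox7a2l (-0.057), Cox7b (-0.055), Ndufa4l2 (-0.294) and Ndufaf3 (-0.017). With length offsets it turned for Uqcrc2 (-0.002) and Ndufa4l2 (-0.083). With 1 library left out, values ranged from -0.030 to 0.052 for Atp5g1, -0.238 to 0.511 for Cox4i2, -0.098 to 0.283 for Cox6a2, -0.151 to 0.457 for Cox6b2 and -0.251 to 0.226 for Ndufa4l2, with each low value without p300-ifKO replicate 1. The cause of these changes was not tested. The edgeR test, TMM factors and the filter on low counts changed no direction and no call among the 46 named genes, and without p300-ifKO replicate 2 there were 25 of them newly past the threshold. Precision is limited by 3 mice a group, and for Cox7b2, Cox8b, Cox4i2 and Atp5g2 also by counts.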
